A study of Mus musculus with 6 samples.

Results

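Cdsn, which encodes corneodesmosin, and the transglutaminase genes Tgm1, Tgm2 and F13a1 were examined in bulk RNA sequencing of mouse optic nerves after optic nerve crush (ON-CR). These 4 genes of the 25755 in the deposited table were chosen by name, with their values in these same libraries already known. The difference between ON-CR and sham mice was part of that choice, so it is given here as a description and no test of it is reported for the members. The groups were 3 sham-operated mice (mice 1 to 3) and 3 mice with ON-CR (mice 4 to 6), all Nf1flox/flox; hGFAP-Cre (NF1flox/flox;hGFAP-Cre in the labels), operated on at 6 weeks of age and analysed at 12 weeks, which the sample labels give as 3 months. Sham mice had the incision without the crush, and the crush was made on both optic nerves. The Cre transgene of all 6 mice is under the control of the human GFAP promoter and deletes Nf1 from neuroglial progenitors and their progeny, so the loss of Nf1 is shared by sham and ON-CR mice and no mouse with intact Nf1 entered this comparison. The mice were perfused through the heart before the nerves were collected, and the labels name 1 mouse for each library. The study pooled mice for its quantitative PCR, and its account of the sequencing does not say whether nerves were pooled.

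Transglutaminases are calcium-dependent enzymes that join a glutamine of one protein to a lysine of another, which leaves a bond that most proteases cannot cut. The reaction runs through a cysteine in the catalytic core. Tgm1 encodes the membrane-anchored enzyme of keratinocytes, which crosslinks proteins such as loricrin and involucrin into the cornified envelope of the outer skin. Corneodesmosin is not an enzyme but a glycine- and serine-rich secreted glycoprotein of the corneodesmosome, the modified desmosome that holds cornified cells together until kallikrein proteases cleave it. Tgm2 encodes tissue transglutaminase, a widely expressed enzyme that also binds GTP and, outside the cell, fibronectin. F13a1 encodes the catalytic A subunit of coagulation factor XIII, which thrombin activates to crosslink fibrin, and which is made by macrophages and by the platelet lineage. In the central nervous system, Tgm1 is also carried by a commonly used list of A2 reactive astrocyte genes.

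The 3 transglutaminase genes share the coding sequence around the catalytic cysteine, and the 45 bases at that position are shown because they are what makes these members one enzyme family (GENCODE M21 transcripts, GRCm38, each read 5′ to 3′ on the minus strand, with the cysteine codon in capitals). The Tgm1 stretch lies at chr14:55709401-55709445 in exon 7 of 15, the Tgm2 stretch at chr2:158131338-158131382 in exon 6 of 13 and the F13a1 stretch at chr13:36946450-36946494 in exon 7 of 15, all of it coding.
Tgm1: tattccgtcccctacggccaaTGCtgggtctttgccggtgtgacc
Tgm2: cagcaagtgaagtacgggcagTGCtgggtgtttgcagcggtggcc
F13a1: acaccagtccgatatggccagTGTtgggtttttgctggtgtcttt
Tgm1 shared 29 of the 45 bases with Tgm2 and 29 with F13a1, and Tgm2 shared 26 with F13a1. Corneodesmosin has no such site. Glycine and serine made up 46.2% of its 561 codons, against 18.5% of 815 in Tgm1, 14.9% of 686 in Tgm2 and 13.1% of 732 in F13a1.

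The 250 bases before the start site are shown for Cdsn and Tgm1, since these members were the ones whose values in every ON-CR library lay above every sham library (RefSeq, GRCm38.p6, 5′ to 3′ on the strand of the gene). The Cdsn window is chr17:35551878-35552127 on the plus strand, and the Tgm1 window is chr14:55713493-55713742 on the minus strand, directly before the first base of transcript Tgm1-202, the longest one. Tgm1-205, a shorter transcript in the same annotation, starts 434 bases further upstream.
Cdsn: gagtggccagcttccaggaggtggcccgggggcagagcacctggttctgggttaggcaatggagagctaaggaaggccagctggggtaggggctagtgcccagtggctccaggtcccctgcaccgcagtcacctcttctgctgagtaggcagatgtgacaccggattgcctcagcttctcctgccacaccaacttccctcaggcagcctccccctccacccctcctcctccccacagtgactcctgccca
Tgm1: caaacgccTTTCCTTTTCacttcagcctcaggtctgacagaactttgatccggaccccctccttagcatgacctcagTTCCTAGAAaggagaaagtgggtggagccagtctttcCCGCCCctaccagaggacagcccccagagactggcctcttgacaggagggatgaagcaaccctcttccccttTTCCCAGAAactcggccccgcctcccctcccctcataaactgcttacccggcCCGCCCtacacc
Capitals mark letters that matched one of 6 motifs, searched on both strands with palindromes counted once: TGANTCA for AP-1, TTCNNNGAA for STAT factors, GGGA, any base and TTTCC for NF-kB, a pair of GAAA blocks with any 2 bases between for IRF factors, GGGCGG for the GC box and TATAAA for the TATA box. The Tgm1 window held 2 STAT matches, 1 IRF match and 2 GC boxes, and no matches overlapped. Among 32851 mouse promoters of the same length, 7.02% held the STAT letters, 2.98% the IRF letters and 32.7% a GC box. The Cdsn window held none of the 6 motifs. At the other RefSeq start of Cdsn, 1 STAT match was found, and the window of the second Tgm1 start and both F13a1 windows had none. The AP-1 letters stood in 6.75% of all promoters, the TATA letters in 12.4% and the NF-kB letters in 0.356%. A match is a description of the letters only, and Tgm2 was not in the promoter table used here.

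The deposited values are normalized gene counts that are not whole numbers. Division by the value of a single read (0.885 to 1.06) gave 17414091 to 23621086 estimated reads per library, and the 3 ON-CR libraries were all shallower than the 3 sham libraries. A count of 3 reads corresponded to a value between 2.66 and 3.18. Across the table, limma called 540 genes at an adjusted p of 0.05 or less, which is 2.1% of those tested, with 250 higher (0.971%) and 290 lower (1.13%) in ON-CR mice, and 67 genes without mouse 6. Markers of the tissue were present at high levels. Summed values of 7 astrocyte markers lay between 206486 and 254911 in sham mice and between 275762 and 305720 in ON-CR mice, a separation that came from Gfap, since the other 6 summed to 107300 to 132918 and 102763 to 119297. Those of 7 oligodendrocyte markers lay between 1.26e+06 and 1.81e+06 in sham mice and between 612406 and 722487 in ON-CR mice. Sex-linked transcripts differed between the groups, with mouse 4 in between. Xist had values of 16.7, 2.14 and 30.9 for sham mice 1, 2 and 3 and of 2708, 6357 and 6131 for ON-CR mice 4, 5 and 6, and the Y-linked Ddx3y had 1645, 1291 and 1544 in sham mice against 976, 4.19 and 0 in ON-CR mice. Mouse 4 therefore carried both transcripts, each at a level between those of the sham mice and of mice 5 and 6, although the Y-linked gene is absent from female mice and Xist is nearly silent in male mice. Whether this library holds RNA of more than 1 mouse was not tested. Without it, the log2 differences described next were 5.72 for Cdsn, 4.64 for Tgm1, 0.17 for Tgm2 and -0.52 for F13a1. The injury and these sex-linked differences cannot be told apart in 6 libraries. The paper reports optic gliomas in nerves of this genotype and age after ON-CR. It found more proliferation, tumour-associated monocytes and T cells there than in sham nerves. The labels do not say whether the sequenced nerves held tumours. The part of tumour or of cell content in the differences between the groups was not tested. Mouse 6 also stood apart in plasma cell markers, whose summed value was 120374 there and 1450 to 4985 in the other mice. In bulk tissue, fewer cells of a type and less RNA per cell cannot be told apart.

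Corneodesmosin RNA was close to the detection limit in sham nerves and well above it in ON-CR nerves. Cdsn (ENSMUSG00000039518.7, chr17:35552128-35557180, plus strand) gave normalized values of 7.43, 10.6 and 0 for sham mice 1, 2 and 3 against 143, 136 and 429 for ON-CR mice 4, 5 and 6. The groups did not overlap, and mouse 6 alone carried more than the other ON-CR mice together. In estimated reads these are 7, 12 and 0 in sham mice against 143, 130 and 413 in ON-CR mice, so the sham level rests on few reads. Group means were 6.02 ± 5.45 (SD, n = 3) in sham and 236 ± 167 in ON-CR mice, a ratio of 39.2. On the log2(value + 1) scale the difference was 5.47 with a standard error of 0.84, which ranked 3 among the 25755 genes. Its size depended on the low sham values: it was 4.36 without sham mouse 3, where the gene was listed at 0, 6.13 without sham mouse 2, 6.66 with a pseudocount of 0.1 and 5.05 with a pseudocount of 2. Without mouse 6 it was 4.93.

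Tgm1 showed the same separation of the groups with less spread among the injured mice. The gene (ENSMUSG00000022218.16, chr14:55700009-55713926, minus strand) gave 6.37, 22.1 and 11.3 for sham mice 1, 2 and 3 against 269, 289 and 351 for ON-CR mice 4, 5 and 6. The groups did not overlap, and the lowest ON-CR value lay far above the highest sham value. The means were 13.3 ± 8.07 in sham and 303 ± 42.6 in ON-CR mice (SD, n = 3), a ratio of 22.9, from 6, 25 and 12 estimated reads in sham and 270, 276 and 338 in ON-CR mice. The log2 difference was 4.56 with a standard error of 0.39 and ranked 7 in the table. Leaving out 1 mouse at a time moved it between 4.16 (without sham mouse 1) and 4.99 (without sham mouse 2). The coefficient of variation among ON-CR mice was 14.1% for Tgm1 and 70.8% for Cdsn. Values in which ON-CR mice lay wholly above sham mice were found for 2717 of the 25755 genes (10.5%), and since Cdsn and Tgm1 were chosen with these values known, nothing is read from their being among them.

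The 2 genes did not keep a fixed proportion to each other. Per kilobase of the longest annotated transcript (2678 bases for Cdsn and 2852 for Tgm1), the level of Cdsn relative to Tgm1 was 1.24, 0.511 and 0 for sham mice 1, 2 and 3 and 0.564, 0.502 and 1.30 for ON-CR mice 4, 5 and 6. Tgm1 was the higher of both in ON-CR mice 4 and 5, and Cdsn in mouse 6. Per kilobase, ON-CR means were 88.1 ± 62.4 for Cdsn and 106 ± 14.9 for Tgm1 (SD, n = 3), a difference within the spread of the mice.

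**Figure D1:**
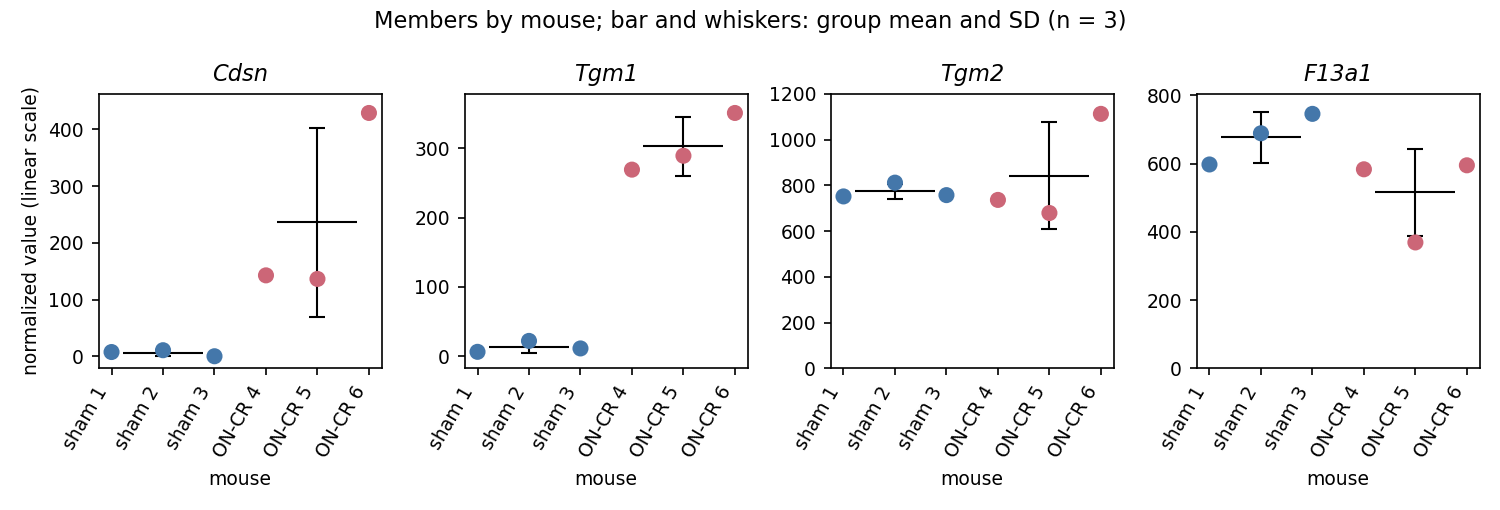
Normalized value (linear scale) of each member in each mouse, with sham mice in blue, ON-CR mice in red, and a black bar with whiskers for the group mean and SD (n = 3). Cdsn and Tgm1 lie at 0 to 22.1 in sham mice but at 136 to 429 in ON-CR mice, Tgm2 overlaps between the groups, and F13a1 is lowest in ON-CR mouse 5.

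Tgm2 was the most abundant member and differed little between the groups. The gene (ENSMUSG00000037820.15, chr2:158116402-158146436, minus strand) gave 752, 812 and 758 for sham mice 1, 2 and 3 against 737, 680 and 1113 for ON-CR mice 4, 5 and 6. ON-CR mice 4 and 5 lay below all sham mice and mouse 6 above all of them, so the groups overlapped. The means were 774 ± 33.3 in sham and 843 ± 236 in ON-CR mice (SD, n = 3), a ratio of 1.09, and the log2 difference of 0.09 had a standard error of 0.18. Its sign rested on mouse 6: without that mouse the difference was -0.13, and without mouse 5 it was 0.23. The coefficient of variation was 4.30% among sham mice and 27.9% among ON-CR mice. Mouse 6 is also the library with the highest Cdsn and the raised plasma cell markers, whose part in the Tgm2 value was not tested.

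F13a1 was the member with lower values after the crush. The gene (ENSMUSG00000039109.16, chr13:36867178-37050244, minus strand) gave 597, 689 and 746 for sham mice 1, 2 and 3 against 583, 369 and 595 for ON-CR mice 4, 5 and 6. The groups touched without overlapping, since ON-CR mouse 6 lay just below sham mouse 1, and mouse 5 was the lowest by far. The means were 677 ± 74.8 in sham and 516 ± 127 in ON-CR mice (SD, n = 3), a ratio of 0.761. The log2 difference of -0.42 had a standard error of 0.19 and moved between -0.54 without mouse 6 and -0.19 without mouse 5. Values wholly lower in ON-CR mice occurred in 2841 genes (11%). The separation did not hold under every scaling: the groups overlapped when libraries were scaled to equal totals, where the difference was -0.29, and when they were scaled by the upper quartile. TMM scaling left them apart.

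Among the 3 transglutaminase members the mean level was highest for Tgm2, then F13a1, then Tgm1, in sham and in ON-CR mice, and the share of Tgm1 in the family was larger in ON-CR mice. Levels of different genes are compared per kilobase of longest transcript. In sham mice Tgm2 stood at 215 ± 9.25, F13a1 at 171 ± 18.9 and Tgm1 at 4.65 ± 2.83, whereas in ON-CR mice the levels were 234 ± 65.5, 131 ± 32.2 and 106 ± 14.9 (SD, n = 3). In ON-CR mice the per-kilobase levels of F13a1 and Tgm1 differed by less than the SD of F13a1, and in mouse 5 Tgm1 stood above F13a1. Tgm1 made up 1.13 ± 0.64% of the summed family level in sham mice compared with 22.5 ± 3.11% in ON-CR mice, while the share of F13a1 was 42.6 ± 2.87% and 27.2 ± 4.31%. Tgm2 held 53.7 ± 2.45% and 48.6 ± 3.94%. Summed over the family, the level ran from 372 to 422 among sham mice and was 459, 389 and 590 for ON-CR mice 4, 5 and 6, so the groups overlapped. These shares follow from the values that chose the members and carry no test.

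The other family genes stayed near the detection limit. Tgm4, the prostate transglutaminase, had a mean value of 12.2 ± 10.3 in sham and 10.6 ± 5.34 in ON-CR mice (SD, n = 3; limma adjusted p = 0.994). Tgm5, an epidermal transglutaminase, had 12.9 ± 3.28 and 9.13 ± 8.22 (adjusted p = 0.601 with limma), and the red cell protein Epb42, a family member without the catalytic cysteine, had 4.75 ± 4.78 and 3.46 ± 4.38 (adjusted p = 0.909). None of the 3 reached an unadjusted p of 0.05, and voom called none. With 0 to 16 estimated reads of Tgm5 per library, only a large difference in this other skin transglutaminase was detectable at this depth. Tgm3, Tgm6, Tgm7 and F13b were not analysed here.

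**Figure D2:**
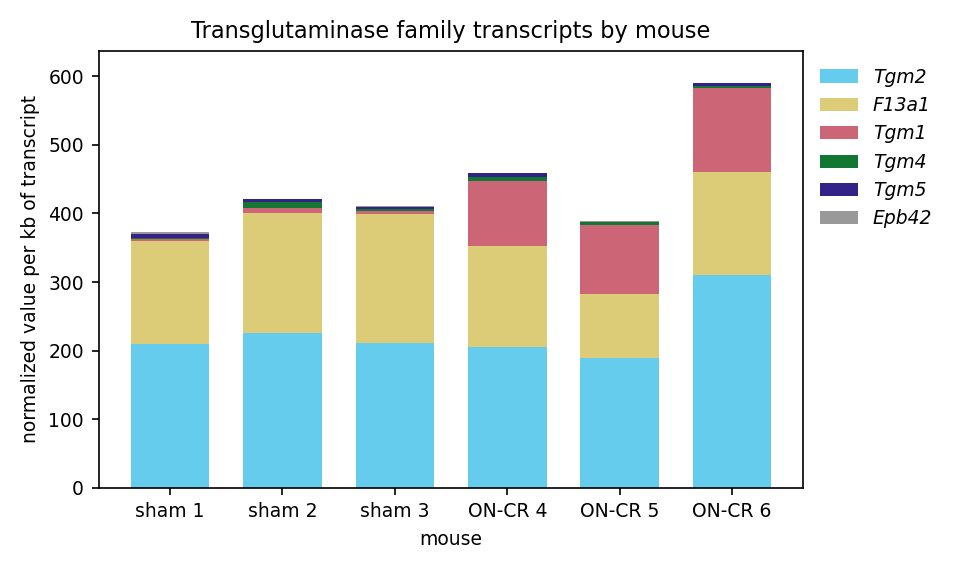
Normalized value per kilobase of longest transcript, stacked over the 6 transglutaminase family genes of the table, for each mouse. Tgm1 takes up a thin band in sham mice and 22.5% of the bar on average in ON-CR mice, while Tgm2 and F13a1 fill most of every bar.

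The genes whose profile over the 6 libraries was most like that of each member were found among 14436 genes with a mean value of at least 50, by the root mean square difference of log2(value + 1) after centring each gene. Profiles were not scaled, so a gene near Cdsn or Tgm1 must itself differ strongly between the groups. These members were chosen with that difference known, so such likeness in part restates it. For Cdsn the nearest were Gm49339 (0.917), Tgm1 (1.29) and Hcar2 (1.30), the last a receptor for ketone bodies and niacin on myeloid cells. So the member nearest to Cdsn was Tgm1, and these distances were large, with Cdsn at 0 reads in sham mouse 3 and at its peak in mouse 6. For Tgm1 the nearest were Ccl4 (0.606), a chemokine of activated microglia and macrophages, Cst7 (0.673), which encodes cystatin F, an inhibitor of lysosomal proteases, and Gm49339 (0.777). Ccl4 had values of 12.7, 11.5 and 19.7 in sham mice and of 396, 324 and 575 in ON-CR mice, so it went from a level like that of Tgm1 to one slightly above it. By quantitative PCR, the paper found no change of Ccl4 RNA after ON-CR in nerves of this genotype at the same age. The sequencing values differ from that result, and the reason was not tested. Cst7 had 12.7, 12.4 and 25.4 in sham mice against 622, 385 and 618 in ON-CR mice. Gm49339, near both members, had 11.5, 30.1 and 3.31 in sham mice against 273, 155 and 248 in ON-CR mice.

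Distances were much smaller for Tgm2 and F13a1, since unscaled profiles of genes that vary little lie close to many others. The profiles nearest to Tgm2 and F13a1 were set by single mice. For Tgm2 they were Dach2 (0.0735), Armt1 (0.0744) and the nucleoporin gene Nup62 (0.0776), all with their highest value in mouse 6 and their lowest in mouse 5. For F13a1 they were Col4a2 (0.0442), a basement membrane collagen chain, Igfbp7 (0.0725), a secreted protein of vessels, and Krt80 (0.0806), a keratin. Col4a2 had values of 247, 272 and 282 in sham mice and of 227, 147 and 244 in ON-CR mice, with the same dip in mouse 5 as F13a1. Likeness over 6 libraries is a description, since the libraries share their depth and scaling.

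**Figure D3:**
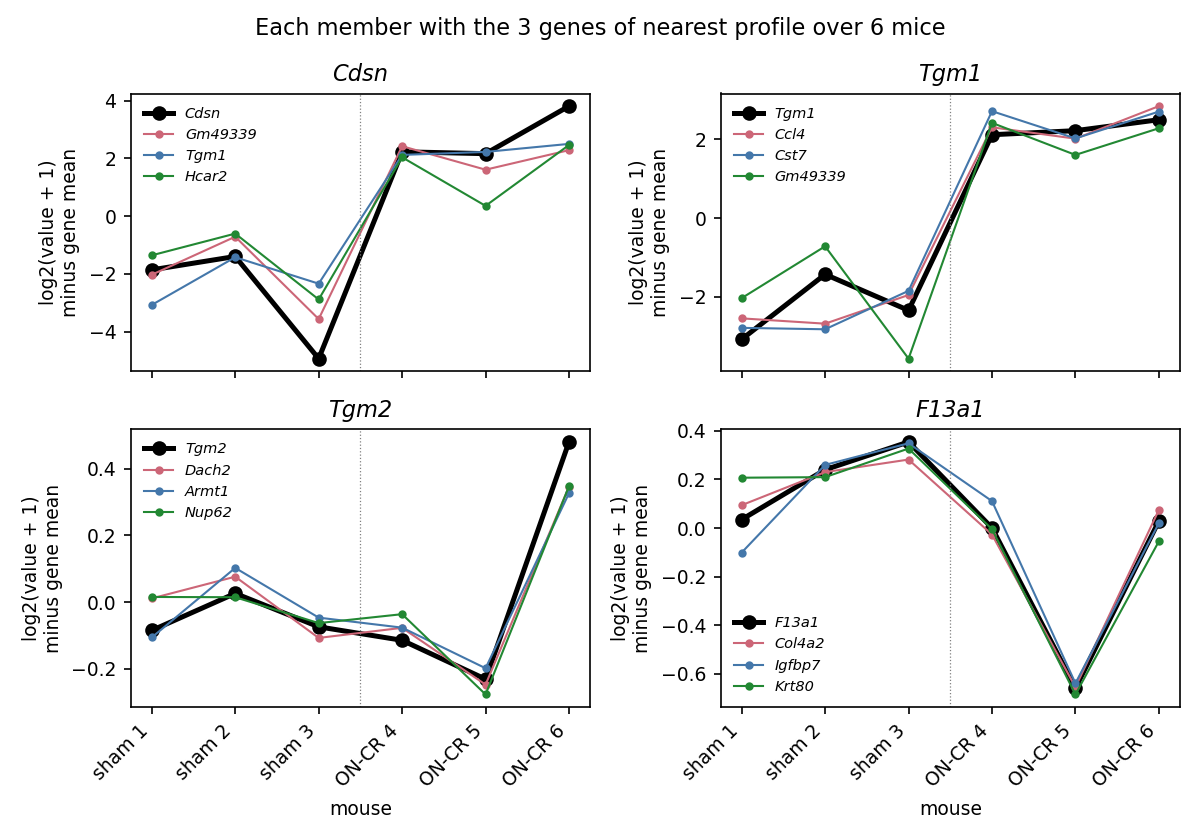
Log2(value + 1) minus the mean of the gene for each member (black) and its 3 nearest genes (colours) over the 6 mice, with sham left of the dotted line; the vertical scale differs between panels. The Cdsn and Tgm1 panels rise by several log2 units at the line, whereas the Tgm2 panel peaks in mouse 6 and the F13a1 panel dips in mouse 5.

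No gene next to Cdsn or Tgm1 on the chromosome was called. Psors1c2, 17481 bases to the left of Cdsn, had values of at most 4.43 and a log2 difference of 0.40 (limma adjusted p = 0.869), and Mucl3, 78572 bases to the right, had values of 0, 0 and 0.939 in sham against 1.99, 6.29 and 3.12 in ON-CR mice (1.84, adjusted p = 0.274, unadjusted p = 0.0345). The groups of Mucl3 did not overlap, but its ON-CR values rested on 2 to 6 estimated reads. The lowest total of any gene in the table was 10 estimated reads over the 6 libraries. Mucl3 was thus in the table mainly through its ON-CR reads, and nothing is read from its direction. On the flanks of Tgm1, Tinf2, a telomere protein gene, differed by 0.03 (adjusted p = 0.951) and Rabggta, 1490 bases away, by 0.19 (adjusted p = 0.584). Of the Tgm1 exons, 182 bases overlap the antisense gene Gm49067, which was not analysed here, and the library kit does not mark strand, so reads of such partners cannot be told apart there. Of the Tgm2 exons, 370 bases overlap Rprd1b on the other strand, whose values of 531 to 612 differed by -0.04 on the log2 scale (adjusted p = 0.908), and 633 bases overlap Gm20412, not analysed here. F13a1 shares 74 exon bases with the antisense gene Gm30489. The nearest gene to its right, Ly86, a myeloid surface protein gene 294964 bases away, was higher in ON-CR mice by 1.34 (adjusted p = 0.0217), a call that held only without mouse 5 when 1 mouse was left out.

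No other gene of the cornified envelope, the structure that Tgm1 builds in skin, passed the test. Of 27 cornified envelope genes, 8 were in the table beside the members, and limma called 0 of them (1 at an unadjusted p under 0.05, 0 with voom), against 2.1% of all genes. Their median log2 difference was 0.68, against 0.03 over all genes, and 7 of the 8 were positive. The summed value of the 8 lay between 178 and 211 in sham mice and between 277 and 338 in ON-CR mice, so the sums did not overlap. Ppl, which encodes the envelope scaffold periplakin, had 37.4 ± 4.94 in sham and 93.2 ± 48.1 in ON-CR mice (adjusted p = 0.190), and Sbsn, which encodes suprabasin, had 85.2 ± 5.42 and 110 ± 26.3 (adjusted p = 0.544). Lor, which encodes loricrin, a substrate of Tgm1 in skin, was added after its values were seen and had 2.12, 5.31 and 5.63 in sham and 3.99, 5.24 and 0 in ON-CR mice, at most 6 estimated reads in any library. The gene of involucrin was not analysed here.

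Desmosome and keratinocyte genes gave no calls either. Of 8 desmosome genes, limma called 0 (2 at an unadjusted p under 0.05, 0 with voom, 1 with the robust fit and 1 without mouse 4), with a median of -0.52. Of the 8, 2 were positive. Their summed value lay between 3471 and 3817 in sham mice and between 2366 and 2797 in ON-CR mice, so the sums did not overlap. Most of this sum came from Jup and Perp. Jup, which encodes the junction protein plakoglobin, had a log2 difference of -0.49 (adjusted p = 0.111, from 0.0485 without ON-CR mouse 4, where it was called, to 0.375 without sham mouse 2), and Perp, a desmosomal membrane protein gene, -0.60 (adjusted p = 0.0620). Of 12 epidermal keratinocyte markers limma called 0 (1 at an unadjusted p under 0.05, 0 with voom), with a median of -0.25 and summed values of 216 to 299 in sham and 165 to 353 in ON-CR mice. Of the 12, 5 were positive. Grhl3, an epidermal transcription factor gene added after its values were seen, was at 0 in every sham mouse. It had 2.99, 2.10 and 7.27 in ON-CR mice (limma adjusted p = 0.181), at most 7 estimated reads. The lowest total of any gene in the table was 10 estimated reads over the 6 libraries. Grhl3 was thus in the table only through its ON-CR reads, and nothing is read from its direction. Krt10, a keratin of the differentiated layers of the epidermis, had 95.6 ± 11.7 in sham and 76.3 ± 22.9 in ON-CR mice (adjusted p = 0.571), and Trp63, a transcription factor of stratified epithelium, 34.0 ± 3.74 and 23.9 ± 13.3 (adjusted p = 0.552). None of these 12 was at 3 reads or fewer in all libraries. Ranges of the summed keratinocyte markers overlapped between the groups, and the part of keratinocyte RNA in the Cdsn and Tgm1 values was not tested.

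Of the proteases and inhibitors of desquamation, which act on corneodesmosin in skin, 1 of 11 was called by limma (3 at an unadjusted p under 0.05, 2 with voom, 2 with equal totals, 4 without mouse 5 and 0 without mouse 6). This was Ctsd, a lysosomal protease gene expressed in most cells, with a log2 difference of 1.20 (adjusted p = 0.00384, and 0.0518 without mouse 6). Klk6, a kallikrein that oligodendrocytes also express, had a mean of 10826 ± 2456 in sham and 10598 ± 3972 in ON-CR mice (adjusted p = 0.919). Of 9 ocular surface markers 1 fell, Cdh1 (-0.80, adjusted p = 0.0498), a call that held only without sham mouse 2 (0.0398) when single mice were left out and did not hold under TMM scaling (0.0563), equal totals (0.0915), upper-quartile scaling, a pseudocount of 0.1, the filter on mean value or voom. Their summed value was 1974 to 3336 in sham and 1522 to 1699 in ON-CR mice. Most of it was Cdh1, with 2376, 1545 and 2279 in sham and 1280, 989 and 1250 in ON-CR mice. Of 6 airway epithelium genes 0 were called by limma (0 at an unadjusted p under 0.05, 0 with voom, 1 without mouse 4), and Bpifa1 was present at 7568 in sham mouse 3 and at 4579 and 5894 in ON-CR mice 5 and 6, with at most 22.3 in the others. High Bpifa1 thus occurred in mice of each group, and the part of epithelial RNA in the Cdsn and Tgm1 values was not tested.

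The A2 reactive astrocyte genes listed together with Tgm1 were set beside it, although Tgm1 was chosen with its large difference known. Of the 11 other A2 genes, 2 rose (1 without mouse 2, 1 without mouse 3 and 0 without mouse 6), with a median log2 difference of 0.61, and 10 of the 11 were positive. Cd109, a membrane glycoprotein gene, went from 322 ± 56.9 to 668 ± 55.1 (1.06, adjusted p = 0.00926 with limma, and 0.0968 without mouse 6), and Cd14, a lipopolysaccharide coreceptor gene that myeloid cells also express, rose by 1.19 (adjusted p = 0.0195, and 0.122, 0.0878 and 0.129 without mice 2, 3 and 6). The highest difference in the list was 1.62, against 4.56 for Tgm1, and nothing is read from that gap because of how Tgm1 was chosen. Of 11 A1 genes limma called 0 (5 at an unadjusted p under 0.05, 1 with voom, 3 without mouse 5), with a median of 0.71. Of 13 pan-reactive genes 8 rose and 1 fell (6 called without mouse 2, 6 without mouse 3 and 6 without mouse 6). Lcn2, which encodes the secreted protein lipocalin-2, went from 49.8 ± 11.2 to 579 ± 88.0, with no overlap (3.53, adjusted p = 0.000136), and S1pr3, a sphingosine-1-phosphate receptor gene, rose by 1.79 (adjusted p = 0.000624). Hspb1, a small heat shock protein gene, was the gene that fell (-1.73, adjusted p = 0.00814, and 0.0591, 0.0537 and 0.0869 without mice 2, 3 and 6).

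Genes of activated microglia include Cst7, whose profile was near that of Tgm1 in a ranking that favours genes with a difference of similar size. Of 12, limma called 9 higher and 0 lower, and 5 without mouse 6, with a median of 1.46. Cst7 rose by 4.97 (adjusted p = 0.000136), a size like that of Tgm1, Clec7a, a beta-glucan receptor gene, by 3.41 (adjusted p = 0.00168), the integrin gene Itgax by 3.16 (adjusted p = 0.00168) and the lipase gene Lpl by 2.76 (adjusted p = 0.00128), and these 4 calls held without any single mouse. Of 8 general microglia genes 1 was called, Aif1 (1.22, adjusted p = 0.0260), and only without mouse 5 when mice were left out. In which cells Cdsn and Tgm1 RNA lay was not measured.

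**Figure D4:**
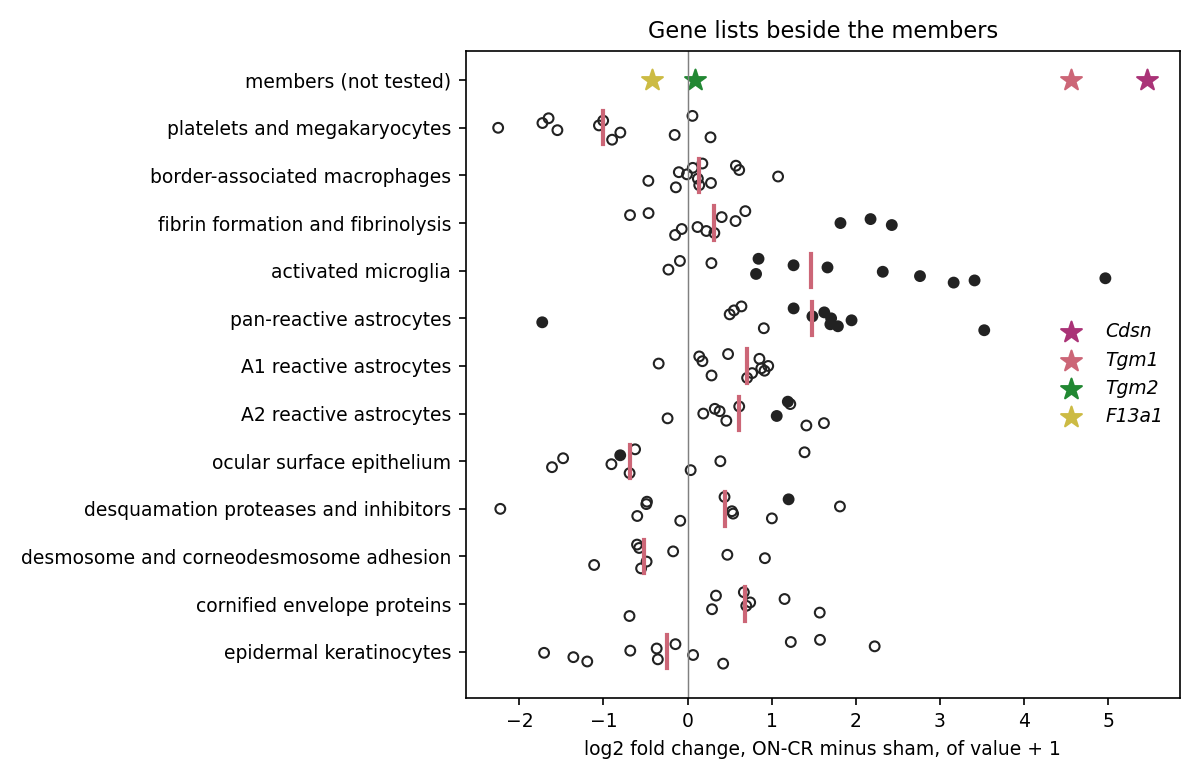
Log2 difference of value + 1, ON-CR minus sham, for the 4 members (stars, not tested) and for the genes of 12 lists (circles; filled where the limma adjusted p is at or under 0.05), with a red bar at each list's median. Cdsn (5.47) and Tgm1 (4.56) lie to the right of every gene of the skin lists, and Cst7 (4.97), an activated microglia gene, is the list gene between them. The members were chosen with these differences known, so their place beside the lists is a description only.

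For F13a1, the cells known to make it and the pathway in which it acts were looked at. Of 12 border-associated macrophage genes limma called 0 (3 at an unadjusted p under 0.05, 1 with voom), with a median of 0.13 and summed values of 3444 to 4719 in sham and 3780 to 4633 in ON-CR mice. Stab1, a scavenger receptor gene of such macrophages, had a log2 difference of -0.01 (adjusted p = 0.992), and Maf 0.18 (adjusted p = 0.681). Of 11 platelet genes 0 were called (6 at an unadjusted p under 0.05, 0 with voom), with a median of -1.0. Of the 11, 5 were wholly lower in ON-CR mice, as were 11% of all genes. Their summed value was 266 to 339 in sham and 156 to 275 in ON-CR mice. Ppbp, a platelet chemokine gene, went from 74.1 ± 12.4 to 42.6 ± 23.4 (adjusted p = 0.276), and Itga2b, the platelet integrin gene, differed by 0.27 (adjusted p = 0.683). The sums overlapped between the groups and were lowest in mouse 4 (156), while F13a1 was lowest in mouse 5, and the part of platelet RNA in the F13a1 value was not tested. Of 8 monocyte genes 0 were called (1 at an unadjusted p under 0.05, 0 with voom), with a median of 0.35.

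Among 13 genes of fibrin formation and fibrinolysis, 3 rose and 0 fell, with a median of 0.32, while 0 were called without mouse 2 and 0 without mouse 6. All 3 belong to plasminogen activation and its control rather than to fibrin crosslinking. Plau, which encodes the plasminogen activator urokinase, went from 10.5 ± 2.30 to 60.8 ± 10.4 (2.43, adjusted p = 0.00846, and 0.0506 and 0.0763 without mice 2 and 6). Plaur, its receptor, went from 51.6 ± 17.3 to 189 ± 75.5 (1.82, adjusted p = 0.0305), but held only without mouse 5 (0.00497) when single mice were left out. Serpinf2, which encodes the plasmin inhibitor alpha-2-antiplasmin, a protein that factor XIII links to fibrin, went from 15.2 ± 4.29 to 70.5 ± 1.30 (2.18, adjusted p = 0.0110, and 0.0538 and 0.0998 without mice 2 and 6). The other activator, Plat, differed by 0.12 (adjusted p = 0.785) and F3, tissue factor, by -0.15 (adjusted p = 0.704).

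For Tgm2, 15 genes of its extracellular partners and substrates were listed, of which 1 rose and 1 fell, with a median of -0.09 that became 0.03 when libraries were scaled to equal totals. Spp1, which encodes osteopontin, a substrate of the enzyme, rose by 0.81 (adjusted p = 0.0286), a call that held without mouse 3 (0.0195) and without mouse 5 (0.0257) and was lost without each of the others. Itgb3, an integrin beta chain gene that platelets also express, fell by 1.05 on the log2 scale (adjusted p = 0.0287) and held only without mouse 4 (0.0456) or mouse 5 (0.0370). Fn1, which encodes fibronectin, had 6743 ± 522 in sham and 5134 ± 914 in ON-CR mice (adjusted p = 0.199), and Sdc4, a heparan sulfate receptor for fibronectin, differed by 0.24 (adjusted p = 0.368). Of 12 other matrix crosslinking enzymes, Loxl1, a lysyl oxidase of elastic fibres, was the one called and had a log2 difference of -0.96 (adjusted p = 0.0403, 0.0656 under equal totals, and under 0.05 only without mouse 4 among the sets of 5 mice). Over all lists, 34 of 220 genes were called, 24 of them higher, against 2.1% of all genes, and 11 were called without mouse 6. The lists were chosen with earlier results of these data known, so nothing is read from this total.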

How the data were processed

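RNA of optic nerves from 3 sham and 3 ON-CR Nf1flox/flox; hGFAP-Cre mice was sequenced in bulk, and mice were grouped by the sample labels. The authors prepared libraries from low-input RNA with a kit that does not mark strand, aligned the reads with DRAGEN, and used Partek Flow (version 10.0 per the submitters' processing notes) with Ensembl annotation of mm10 for median normalization. The file deposited by the authors holds this normalized signal for each gene and no raw counts, so no count model was run, although the study used DESeq2. Columns of 6 libraries were used and 0 were left unused. Libraries of the traumatic brain injury experiment were not analysed here.

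The two-sided test was that of limma 3.58.1 (R 4.3.3) on log2(value + 1), with a trend of variance on mean. Benjamini-Hochberg adjustment ran over all 25755 genes of the deposited table, with no further filter. No gene of that table had fewer than 10 estimated reads over the 6 libraries. Counts and shares of genes therefore refer to genes at or above that level. Adjusted p values are from limma unless voom is named, and a gene was called at 0.05 or less. The fit was checked on simulated data. Estimated reads (17414091 to 23621086 per library) were values divided by the most frequent low step. Between 64.6% and 67.7% of values came out whole within 0.01, too few for a count test, so these reads were used only to state depth, to set the floor of 3 reads and to run voom. The floor covers counting error only. Nothing in the labels says how the 3 mice of a group were housed or processed, and p values measure the spread between these mice.

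The 4 members, the 24 gene lists and the tests were chosen with earlier results of these data known. Members were left out of every list. Genes named in the text were the members, the other family genes, up to 4 called genes of largest difference and the 2 of highest mean in each list, the 3 nearest profiles of each member, the neighbouring and overlapping genes, and Xist and Ddx3y. Alternatives were TMM, upper-quartile and equal-total scaling, pseudocounts of 0.1 and 2, a mean value of at least 10, a robust fit, voom with sample quality weights, and leaving out each mouse. Positions and coding stretches are from GENCODE M21 (GRCm38), and promoters from RefSeq (GRCm38.p6).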

Additional observations from a re-analysis of the deposited data

How the results depend on the processing

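The log2 differences of the members kept their sign under every scaling, pseudocount, filter and model tried, and when 1 mouse was left out, except Tgm2 without mouse 6 (-0.13 in place of 0.09). Cdsn ranged from 4.36 to 6.13 and Tgm1 from 4.16 to 4.99 when single mice were left out, and F13a1 from -0.54 to -0.19. The count of all genes called was 540, and 861 with voom, and leaving out single mice gave 67 to 854. Those higher numbered 250, against 421 with equal library totals, 614 with voom and 39 to 489 without single mice, and those lower numbered 290, against 28 to 365 without single mice. Fewer mice in the fit lower the count by construction, but the rise without mouse 5 has a cause that was not tested. Equal totals moved the median of all genes from 0.03 to 0.15, so list medians there are higher by about as much. List genes called numbered 34, and 11 to 44 without single mice. No paired analysis was possible because sham and ON-CR mice carry different numbers. Depth limits Cdsn in sham mice, which rested on 0 to 12 estimated reads, and the family genes Tgm4, Tgm5 and Epb42.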

Other observations

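Cell type markers not set beside a member above are given here for the nerve as a whole. Of 7 oligodendrocyte genes, 6 fell with limma, with a median log2 difference of -0.87, while 2 were called without sham mouse 1, 0 without sham mouse 2 and 0 without mouse 6. Of 7 astrocyte genes limma called 0 (4 at an unadjusted p under 0.05, 4 with voom, 1 with equal totals, 1 with the robust fit, 1 without mouse 5), with a median of 0.14. The 7 genes of meningeal and perineural fibroblasts had a median of -0.49 and 0 calls with limma (5 at an unadjusted p under 0.05, 0 with voom, 1 with the robust fit, 2 without mouse 4), and summed values of 22057 to 25647 in sham and 13967 to 20875 in ON-CR mice. Of 7 endothelial and pericyte genes 0 were called by limma (1 at an unadjusted p under 0.05, 0 with voom), with a median of -0.03 that became 0.09 with equal library totals. Of 7 plasma cell genes limma called 0 (1 at an unadjusted p under 0.05, 0 with voom, 1 without mouse 4), with a median of 1.20. Of 6 genes of retinal ganglion cell bodies, which lie in the retina and not in the nerve, 0 were called by limma (1 at an unadjusted p under 0.05, 0 with voom), with a median of 0.21 and summed values of 815 to 1389 in sham and 982 to 3042 in ON-CR mice.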
